A study of Mus musculus with 22 samples.

Results

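The arrays described here compare mammary tumours labelled PEA3-null with tumours labelled wild type for PEA3. They were chosen by title. There were 13 of them among 22 arrays in all. Of these, 5 carried RNA of 2 PEA3-null samples and 8 carried RNA of 3 wild-type samples. The other 9 arrays carried 3 normal gland samples, used only as a level to set the tumours against. PEA3-null samples were pools of RNA from tumours of mice lacking PEA3, and wild-type samples were pools from tumours of mice with intact PEA3. Every tumour in both groups had been induced by the Her2/Neu transgene, whose promoter the labels do not give, and the age and strain of the tumour-bearing mice are not given either. Normal glands came from FVB mice. All groups are labelled as flow-sorted for the surface marker Sca-1, so the material is described as a cell fraction and not whole tumour. Numbers of animals per pool are not given. The arrays of a group share a submitters' sample identifier, so replicates may be technical, and p-values then measure only the spread between these RNA samples.

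PEA3, encoded by Etv4, is a transcription factor of the ETS family, whose members bind a core GGAA sequence, and its closest relatives are Etv1 and Etv5. It lies downstream of receptor tyrosine kinases that signal through Ras and MAP kinase, among them ErbB2, the receptor that Her2/Neu encodes, and it is expressed in Her2/Neu mammary tumours. Most of the genes that differed past the threshold belong to another system, the interferon response, in which secreted interferons act through receptors and JAK kinases to switch on a large set of antiviral genes. Interferon gamma also induces guanylate-binding proteins and the machinery that loads peptides onto MHC class I.

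RNA had been hybridised to the Affymetrix MG-U74v2 set, split over chips A, B and C, on which several probe sets can read a gene. Signals given below are on a linear scale on which the 2% trimmed mean of each array is 500. A signal of 150 was reached by 6891 to 8415 probe sets per array. Chips A and B carried 2 PEA3-null, 3 wild-type and 3 normal samples, and chip C carried 1, 2 and 3. On chip A the correlation of log2 signals across probe sets was 0.877 between the PEA3-null samples, 0.869 to 0.909 between samples of different genotype and 0.896 to 0.910 among wild-type samples. On chip B the same correlations were 0.710, 0.695 to 0.784 and 0.772 to 0.796. Probe sets are not independent replicates. The ratio of 3′ to 5′ signal of Gapdh, a sign of RNA integrity, was 0.978 and 0.982 in PEA3-null tumours, against 1.23, 1.15 and 1.17 in wild-type tumours on chip A, without overlap. On chip B it was 1.01 and 1.11 in PEA3-null tumours and 1.25, 1.08 and 1.09 in wild-type tumours. Over the chips it was 2.58 to 6.08 in normal glands, which shared no scan day with the tumours. The same ratio for beta-actin overlapped on chip A, at 1.26 and 1.24 in PEA3-null tumours and 1.66, 1.29 and 1.21 in wild-type tumours. The part of these ratios and days in the differences was not tested. The 5 tumour arrays of chip A shared a scan day, and wild-type sample 3 came from another chip lot there. For chip B, scan days and chip lots of the PEA3-null and wild-type arrays differed, so genotype and lot or day cannot be told apart there.

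The genotype labels were first set against the PEA3 gene. The Etv4 probe set 92979_at read 507 and 273 on the arrays labelled PEA3-null, against 415, 356 and 357 on wild-type tumour arrays and 115 to 177 in normal glands. The second, 161842_r_at, read 465 and 725 in PEA3-null tumours, 917, 363 and 944 in wild-type tumours and 612 to 934 in normal glands. Tumours thus lay above normal gland by the first probe set only. The genotypes overlapped on both, with log2 differences of -0.01 (SE 0.34, adjusted p = 0.999) and -0.22 (SE 0.39, adjusted p = 0.939) in limma. The Etv4 signal thus did not set the labelled genotypes apart. Probes that lie outside the deleted sequence would check nothing, and the sources used here give neither their positions nor the extent of the deletion. In what follows, PEA3-null means labelled PEA3-null, and every direction given rests on that label. Etv5 on chip B read 5740 and 3610 in PEA3-null tumours, 4820, 4820 and 4000 in wild-type tumours and 312 to 413 in normal glands. Erbb2, read on chip C, was at 4760 in the PEA3-null sample, 3500 and 4090 in wild-type tumours and 1780 to 1920 in normal glands. Both genes thus lay above normal gland in every tumour sample measured, and Etv5 overlapped between genotypes. Neither Etv1 nor Ly6a, which encodes Sca-1, was the sole symbol of a tested probe set, so the sort could not be checked by its marker. Genes of fat and red cells were bright in normal glands, with Adipoq, the adiponectin gene, at 25500 to 27000 and the globin gene Hba-a1 at 39100 to 42800. In tumours Hba-a1 read 28600 to 73200. The purity of the sorted cells was not tested, and the cell fraction rests on the label.

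On chips A and B, tumours labelled PEA3-null had far more RNA for carboxypeptidase E and for 3 interferon-induced genes than wild-type tumours. Of 17738 probe sets tested on chips A and B, 6 passed an adjusted p of 0.05 (limma with Benjamini-Hochberg adjustment), which is 0.0338% of those tested. There were 5 higher in PEA3-null tumours (0.0282%) and 1 lower (0.00564%). Without adjustment 1231 (6.94%) had p under 0.05.

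Cpe, carboxypeptidase E, which trims basic residues from peptide hormone precursors, was read by a pair of probe sets on chip A and both passed. Probe set 99643_f_at read 2200 and 1450 in PEA3-null tumours, 127, 190 and 215 in wild-type tumours and 1250 to 1420 in normal glands. The second, 99642_i_at, read 1430 and 1360 in PEA3-null tumours, 196, 132 and 255 in wild-type tumours and 856 to 935 in normal glands. The genotypes did not overlap by either, and PEA3-null tumours lay above normal gland while all wild-type tumours lay far below it. Cpe was 8.85-fold higher by the first (log2 3.15, SE 0.32, adjusted p = 0.016) and 6.45-fold by the second (log2 2.69, SE 0.32, adjusted p = 0.0235). Both were read on the same arrays, and the suffix f of the first marks a probe set whose probes can match several sequences. The Cpe probe sets of chip C, dim in tumours, did not share this difference. Probe set 137173_at read 181 in the PEA3-null sample, 421 and 103 in wild-type tumours and 529 to 803 in normal glands. By it the PEA3-null sample lay below normal gland and between the wild-type samples. The other, 170012_r_at, read 173 in the PEA3-null sample and 49.3 and 241 in wild-type tumours.

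Usp18, the protease that removes ISG15 from proteins and dampens interferon receptor signalling, read 2150 and 2070 in PEA3-null tumours, 326, 403 and 502 in wild-type tumours and 386 to 713 in normal glands. It was 4.9-fold higher (log2 2.29, SE 0.25, adjusted p = 0.016), and PEA3-null tumours stood above every other sample. Oasl2, an oligoadenylate synthetase-like antiviral protein, read 3890 and 4280 in PEA3-null tumours, 1100, 888 and 1260 in wild-type tumours and 3070 to 3230 in normal glands on chip B (log2 1.90, SE 0.25, adjusted p = 0.0235). Ifitm3, a membrane protein that blocks virus entry, read 14100 and 15000 in PEA3-null tumours, 5980, 5080 and 6360 in wild-type tumours and 9580 to 11500 in normal glands (log2 1.33, SE 0.17, adjusted p = 0.0296). For both genes wild-type tumours lay below normal gland and PEA3-null tumours above it.

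The only probe set that fell was 114614_at for BC006965, a gene of unassigned function, on chip B. It read 921 and 373 in PEA3-null tumours, 2490, 4170 and 3690 in wild-type tumours and 442 to 718 in normal glands (log2 -2.45, SE 0.36, adjusted p = 0.04). Its other probe sets did not differ in this way. Probe set 111078_at read 256 and 323 in PEA3-null tumours and 297, 140 and 373 in wild-type tumours. On chip C 133744_at read 2160 in the PEA3-null sample and 2190 and 2010 in wild-type tumours.

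Chip A taken alone, where genotype and scan day are not confounded, gave 6 of 8074 probe sets (0.0743%), all higher. Besides Cpe, Usp18 and Ifitm3 these were Ifit3 and Notch4. Ifit3, an antiviral protein of the IFIT family, read 870 and 801 in PEA3-null tumours, 80.3, 132 and 138 in wild-type tumours and 347 to 710 in normal glands (log2 2.57, SE 0.38, adjusted p = 0.0454 over chip A and 0.0665 over both chips). Notch4, a receptor of the Notch family, read 9730 and 10700 in PEA3-null tumours, 3470, 3290 and 4950 in wild-type tumours and 207 to 390 in normal glands by 93928_f_at (log2 1.40, SE 0.20, adjusted p = 0.0406 over chip A and 0.0591 over both chips). Here too the suffix f marks a probe set whose probes can match several sequences. The other Notch4 probe set of chip A was too dim to test, at 105 and 252 in PEA3-null tumours and 34, 18.3 and 91.8 in wild-type tumours.

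**Figure D1:**
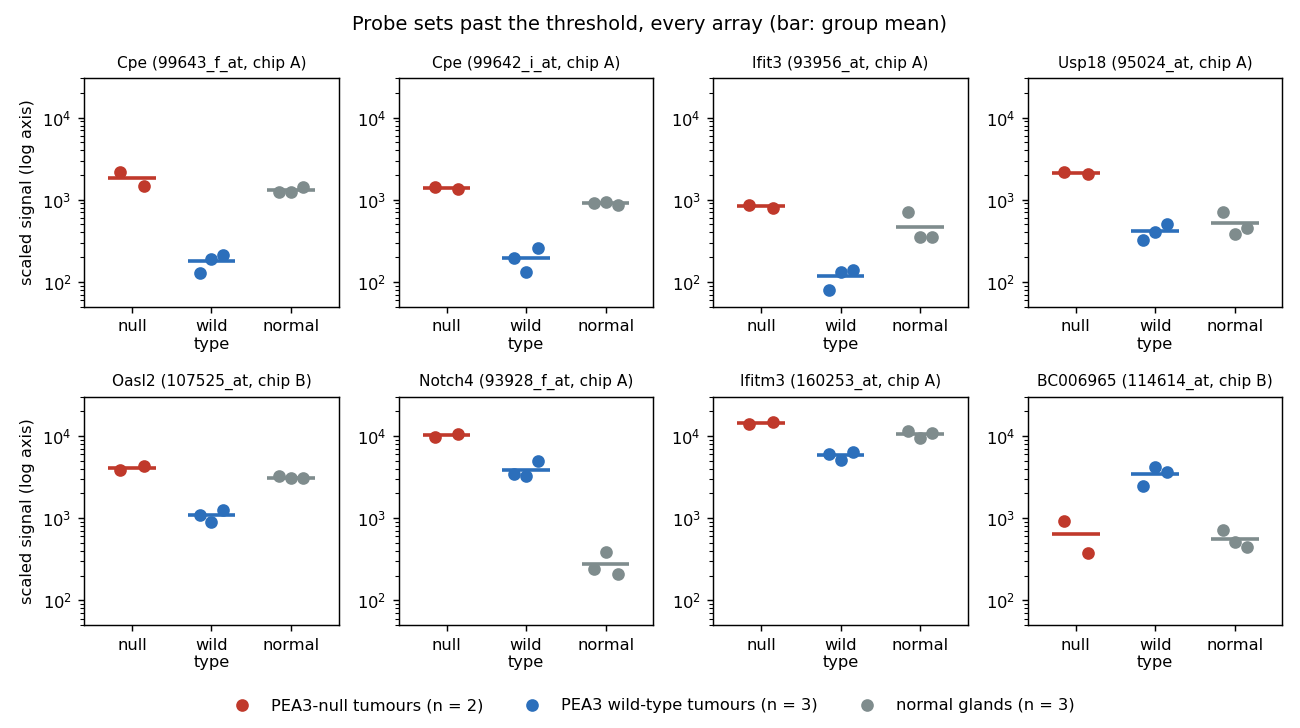
Signal of each probe set past the threshold, on every array of its chip (points) with the group mean (bar), on a log axis, for PEA3-null tumours, wild-type tumours and normal glands. PEA3-null and wild-type tumours do not overlap in any panel. In the Cpe panels wild-type tumours, at 127 to 255, lie below both other groups, and in the Notch4 panel both tumour groups lie above normal gland, at 207 to 390.

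The count depended on the RNA samples used. Leaving out PEA3-null sample 1 gave 41 probe sets and leaving out PEA3-null sample 2 gave 1, while leaving out wild-type sample 1, 2 or 3 gave 0 each in limma (981, 892 and 922 at an unadjusted p under 0.05). When normal glands were added to the fit, 37 of 19214 probe sets passed (0.193%), and the median log2 SD on chip A was 0.31 in PEA3-null tumours, 0.30 in wild-type tumours and 0.20 in normal glands.

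Interferon-induced genes lay higher in PEA3-null tumours almost as a whole. Of 43 listed, 33 could be tested, and 32 of these were higher. Their median log2 difference was 0.80, while that of all 11124 genes, each read by its brightest probe set, was -0.01, with 5494 higher. Past the adjusted threshold 3 rose and 0 fell, where 4 of all genes rose (0.036%) and 1 fell (0.00899%). At an unadjusted p under 0.05 there were 16 higher and 0 lower, compared with 324 higher (2.91%) and 479 lower (4.31%) of all genes. In 17 both PEA3-null samples exceeded all wild-type samples, and in 1 both lay below. Of all genes 1227 (11%) and 1383 (12.4%) were so placed. The list and its direction were known from earlier results of these data, so these counts describe it and are no independent evidence.

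Both PEA3-null samples showed the difference. The median of the list, set against the wild-type mean, was 0.73 and 0.86 in PEA3-null tumours, 0.00, -0.11 and 0.22 in wild-type tumours and 0.80, 0.53 and 0.69 in normal glands. By this median PEA3-null tumours resembled normal glands in level and wild-type tumours lay lower than both. The summed signal of the list was placed otherwise. It was 114000 and 138000 in PEA3-null tumours, 104000, 81300 and 83700 in wild-type tumours and 86500 to 94100 in normal glands. Gene by gene, PEA3-null tumours lay above the normal range for 15 of the 33, overlapped it for 11 and lay below it for 7, whereas wild-type tumours lay above it for 5, overlapped it for 13 and lay below it for 15.

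Sequence near the start of these genes was searched for an interferon motif. Many interferon-induced genes carry an interferon-stimulated response element, which IRF9 binds. It was searched as GAAA and GAAA with any 2 bases between them, on either strand and with overlapping matches counted, in windows of 300 bases from 250 before to 50 after the transcription start (RefSeq, GRCm38.p6). The 4 windows below are those of Oasl2, Ifitm3 and Ifit3, the interferon-induced genes past a threshold that had a window, and of Isg15, whose product USP18 acts on. Each reads 5′ to 3′ along its gene's strand, and capitals mark matches.
Oasl2, chr5:114896684-114896983, strand +: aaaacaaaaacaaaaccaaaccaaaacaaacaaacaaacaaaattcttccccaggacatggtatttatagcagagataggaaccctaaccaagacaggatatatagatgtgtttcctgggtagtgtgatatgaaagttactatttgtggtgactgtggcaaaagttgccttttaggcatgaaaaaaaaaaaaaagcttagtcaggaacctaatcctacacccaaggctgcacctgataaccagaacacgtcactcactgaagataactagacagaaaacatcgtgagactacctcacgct
Ifitm3, chr7:141010695-141010994, strand -: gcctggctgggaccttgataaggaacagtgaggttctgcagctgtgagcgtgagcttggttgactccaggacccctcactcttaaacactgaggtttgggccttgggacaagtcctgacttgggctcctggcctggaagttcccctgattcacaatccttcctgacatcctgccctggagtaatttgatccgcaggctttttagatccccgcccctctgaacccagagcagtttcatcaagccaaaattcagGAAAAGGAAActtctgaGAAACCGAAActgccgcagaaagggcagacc
Ifit3, chr19:34583279-34583578, strand +: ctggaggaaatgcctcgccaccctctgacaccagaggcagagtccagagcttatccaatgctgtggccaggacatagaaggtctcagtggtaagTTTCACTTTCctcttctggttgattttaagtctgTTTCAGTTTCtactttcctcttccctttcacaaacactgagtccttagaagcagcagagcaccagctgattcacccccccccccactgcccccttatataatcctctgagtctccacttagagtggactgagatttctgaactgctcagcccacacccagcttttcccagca
Isg15, chr4:156200769-156201068, strand -: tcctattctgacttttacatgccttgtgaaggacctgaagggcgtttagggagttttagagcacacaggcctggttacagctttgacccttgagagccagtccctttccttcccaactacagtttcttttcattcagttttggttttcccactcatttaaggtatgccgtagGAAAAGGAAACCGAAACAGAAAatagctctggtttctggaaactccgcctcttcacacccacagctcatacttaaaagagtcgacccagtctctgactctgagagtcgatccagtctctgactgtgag
Ifit3 and Ifitm3 held 2 matches each and Isg15 held 3, while these letters were not in the window of Oasl2. The matches of Ifit3 and Isg15 lay before the start and those of Ifitm3 just after it. Among windows not printed, that of Bst2 held 2 matches and those of Irf7, Notch4 and BC006965 held 0.

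Of 27 windows of the listed interferon-induced genes, 13 held the motif (48.1%), compared with 337 of the 11475 windows of all genes tested (2.94%). The list was drawn up for interferon induction, so that share partly follows from its making. Genes taken by their difference alone were therefore also searched, a choice made after the values were seen. Of 360 windows of the genes higher in PEA3-null tumours at an unadjusted p under 0.05, 32 held the motif (8.89%), and of 489 windows of the genes lower, 8 did (1.64%). With the interferon and MHC lists left out, 18 of 332 windows of the higher genes held it (5.42%). The ETS site CCGGAAGT, to which PEA3 and many relatives can bind, was in 9 of 360 windows of higher genes (2.5%), 38 of 489 of lower genes (7.77%) and 833 of 11475 of all genes tested (7.26%). The variant CAGGAAGT was in 2.78%, 3.89% and 3.28%. A match describes letters in a window and not a bound site.

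Genes of the type I response that did not pass included Isg15, Bst2 and Irf7. Isg15, the ubiquitin-like protein that USP18 removes, read 2160 and 1850 in PEA3-null tumours and 652, 414 and 911 in wild-type tumours (log2 1.62, SE 0.30, adjusted p = 0.128). Bst2, or tetherin, which holds budding virus at the cell surface, read 9540 and 5750 in PEA3-null tumours and 1730, 2240 and 3280 in wild-type tumours on chip B (log2 1.65, SE 0.30, adjusted p = 0.12). Irf7, the transcription factor that amplifies interferon production, read 2470 and 3410 in PEA3-null tumours and 1180, 1260 and 1410 in wild-type tumours (log2 1.16, adjusted p = 0.128). None of these overlapped between genotypes. Its second tested probe set differed the same way (log2 0.82), and on chip C Irf7 read 34100 in the PEA3-null sample and 9410 and 15200 in wild-type tumours.

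Oas2, Parp9, Ifi203, Irf7, Irf9, Rsad2, Ifit1, Ly6e, Ifi27, Irf1, H2-D1, B2m, Dusp6, Pglyrp1, Acta1 and Oas3 are named outside the rule for named genes, after their values were seen. The genotypes were also apart for Oas2, a 2′-5′ oligoadenylate synthetase that activates RNase L, at 1470 and 1280 in PEA3-null tumours and 454, 499 and 641 in wild-type tumours on chip B. Parp9, an ADP-ribosyltransferase of the interferon response, read 4190 and 2470 in PEA3-null tumours and 1390, 1410 and 1720 in wild-type tumours. Rsad2, or viperin, read 1080 and 1080 in PEA3-null tumours and 757, 504 and 430 in wild-type tumours (log2 0.94). For these 3 genes too, both PEA3-null samples lay above all wild-type samples. Irf9, a DNA-binding factor of the type I response, read 1950 and 1980 in PEA3-null tumours and 1200, 1330 and 1170 in wild-type tumours (log2 0.66). Ifit1, a relative of Ifit3 that binds viral RNA, overlapped, with 960 and 493 in PEA3-null tumours and 89.5, 323 and 527 in wild-type tumours. Ly6e and Ifi27, further interferon-induced genes, overlapped, with log2 differences of 0.11 and 0.03. The member that lay lower was Ifi203, of the interferon-inducible p200 family, at 70.6 and 65.2 in PEA3-null tumours and 293, 161 and 346 in wild-type tumours on chip B (log2 -1.52, adjusted p = 0.726).

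Genes of the interferon gamma response lay higher as well, but 0 passed the adjusted limma threshold. Of 12 tested guanylate-binding proteins, immunity-related GTPases and related genes, 11 were higher, 6 with an unadjusted p under 0.05 and 7 without overlap, where 2.91% and 11% of all genes were. Their median log2 difference was 0.65. Gbp3, a guanylate-binding protein that acts against intracellular pathogens, read 1360 and 912 in PEA3-null tumours, 241, 284 and 375 in wild-type tumours and 1040 to 1370 in normal glands (log2 1.80, SE 0.30, adjusted p = 0.12). Igtp, an immunity-related GTPase, read 865 and 759 in PEA3-null tumours, 255, 257 and 370 in wild-type tumours and 779 to 1250 in normal glands (log2 1.39, adjusted p = 0.238). Both therefore reached the normal range, or came close to it, in PEA3-null tumours only. Gbp2 read 927 and 1070 in PEA3-null tumours, 316, 305 and 625 in wild-type tumours and 2260 to 2780 in normal glands, so that both genotypes lay below normal gland. Irf1, the transcription factor first in line of the gamma response, overlapped between the genotypes (log2 0.09).

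MHC class I genes and their peptide supply followed. Of 13 tested, 12 were higher, 6 with an unadjusted p under 0.05 and 8 without overlap, where 2.91% and 11% of all genes were. Of these 0 passed the adjusted limma threshold, and the median was 0.52. Tap1, a subunit of the transporter that carries peptides into the endoplasmic reticulum, read 3170 and 3490 in PEA3-null tumours, 1320, 1020 and 1780 in wild-type tumours and 1560 to 1880 in normal glands (log2 1.29, adjusted p = 0.128). Psmb8, an immunoproteasome subunit, read 8700 and 8000 in PEA3-null tumours, 3860, 3470 and 4440 in wild-type tumours and 3960 to 5100 in normal glands (log2 1.09, SE 0.17, adjusted p = 0.101). For these genes PEA3-null tumours exceeded normal gland, and wild-type tumours lay near it. Tapbp, which bridges the transporter and class I molecules, read 4120 and 4320 in PEA3-null tumours and 2670, 2270 and 2120 in wild-type tumours (log2 0.84), and its other tested probe sets gave 0.43 and 0.12. The class I chains lay higher as well. H2-D1, a heavy chain, read 39400 and 50200 in PEA3-null tumours and 36400, 30500 and 33500 in wild-type tumours (log2 0.41), and its other tested probe sets gave 0.40 and 0.99. B2m, the light chain, read 31900 and 34700 in PEA3-null tumours and 30700, 24000 and 23300 in wild-type tumours (log2 0.36). H2 genes are near-identical copies whose probes may read each other.

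MHC class II genes, which mark professional antigen-presenting cells, were higher in 6 of 7 tested. Of the 7, 3 were higher at an unadjusted p under 0.05 and 2 without overlap, where 2.91% and 11% of all genes were. The median log2 difference of the list was 0.66, and the PEA3-null samples were uneven. Set against the wild-type mean, the median of the list was 0.26 in PEA3-null sample 1 and 1.09 in sample 2, against -0.16 to 0.25 in wild-type tumours and 1.56 to 1.60 in normal glands. Cd74, the class II invariant chain, read 1580 and 2870 in PEA3-null tumours, 1170, 1390 and 1400 in wild-type tumours and 14200 to 16400 in normal glands. Both genotypes lay far below normal glands for Cd74, but over the list PEA3-null tumours lay below the normal range for 4 of 7 genes and overlapped it for 3, and wild-type tumours lay below it for 5.

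**Figure D2:**
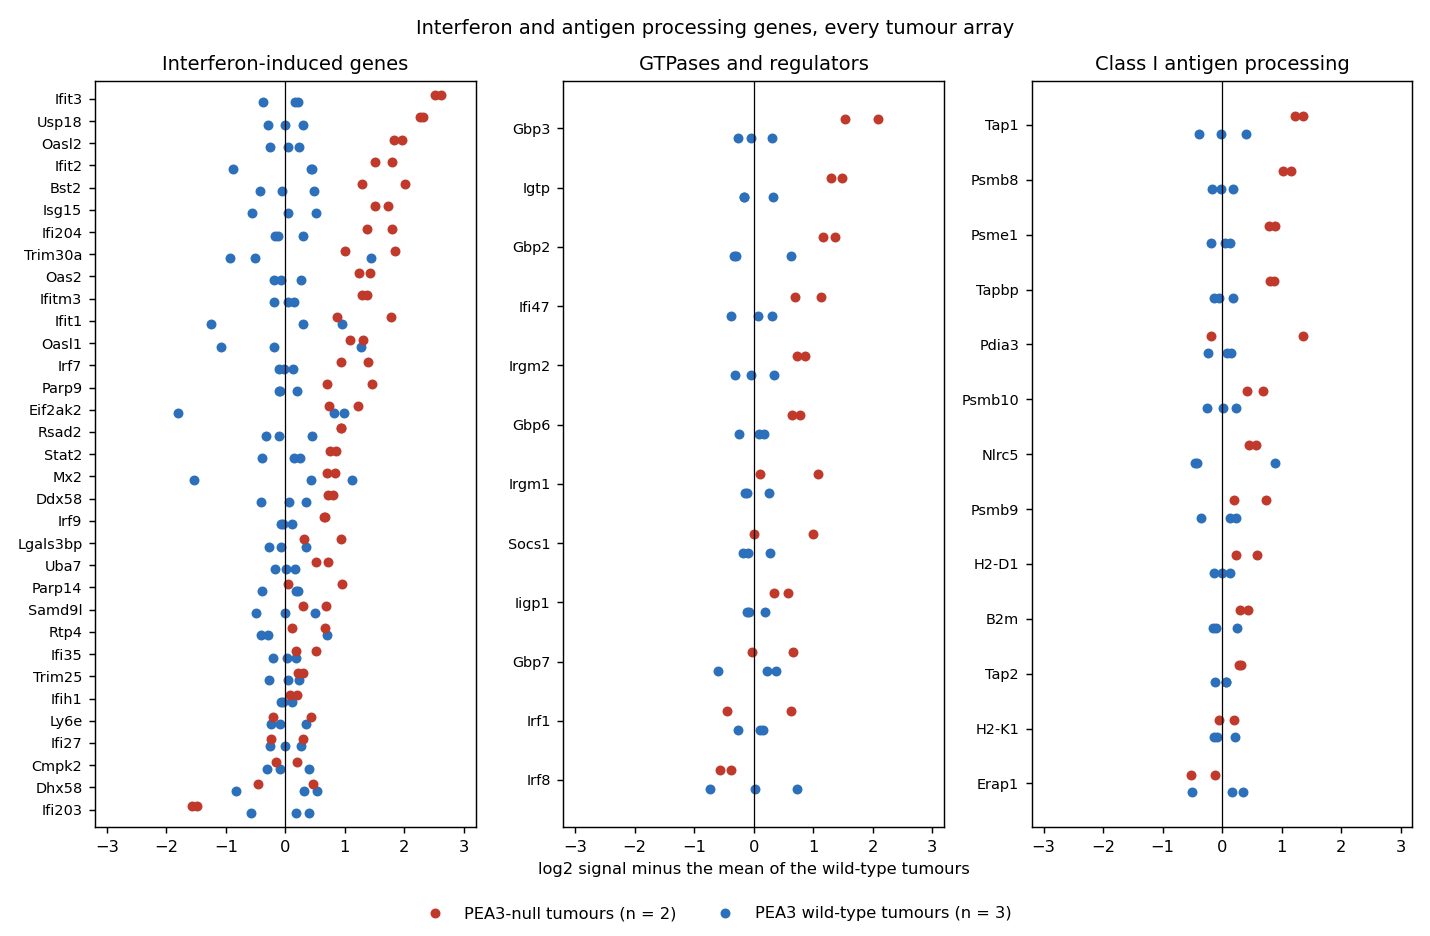
Log2 signal of each listed gene on every tumour array, minus the mean of the wild-type tumours, for PEA3-null and wild-type tumours. In 17 of the 33 interferon-induced genes both PEA3-null points lie right of all wild-type points, and Ifi203 (log2 -1.52) is the gene where both lie left.

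Genes that carry the interferon signal did not move together. Of 11 tested, the median log2 difference was -0.04. At an unadjusted p under 0.05, 1 was higher and 2 lower, where 2.91% and 4.31% of all genes were. Ifnar2, a type I interferon receptor chain, read 399 and 582 in PEA3-null tumours and 222, 211 and 267 in wild-type tumours (log2 0.96). The kinases Jak1 and Tyk2, which serve the type I receptor, lay the other way. Jak1 read 705 and 744 in PEA3-null tumours, 1210, 1010 and 1390 in wild-type tumours and 1680 to 2130 in normal glands (log2 -0.70, adjusted p = 0.587). On chip B Tyk2 read 200 and 185 in PEA3-null tumours and 580, 698 and 495 in wild-type tumours (log2 -1.46, adjusted p = 0.587), but its chip A probe set overlapped and gave 0.89. Irf3, which switches on interferon genes after virus sensing, read 584 and 539 in PEA3-null tumours and 283, 368 and 410 in wild-type tumours (log2 0.64).

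Genes listed as targets of PEA3 or its relatives lay close to the median of all genes. Of 34 listed, 19 were tested, with a median log2 difference of -0.10 and 0 past the adjusted limma threshold. At an unadjusted p under 0.05, 1 was lower and 0 higher, where 4.31% and 2.91% of all genes were. The lower gene was Ccnd1, cyclin D1, which drives entry into the cell cycle. It read 1730 and 1680 in PEA3-null tumours, 2430, 2720 and 1950 in wild-type tumours and 763 to 831 in normal glands (log2 -0.45, adjusted p = 0.713), so by this probe set it lay lower in PEA3-null tumours without overlap but above normal gland in both. A second tested probe set overlapped (log2 -0.25), as did that of chip C, at 3110 in the PEA3-null sample and 2390 and 4420 in wild-type tumours. Mmp3, the protease stromelysin-1, read 95 and 43.7 in PEA3-null tumours and 210, 176 and 107 in wild-type tumours (log2 -0.96). Mmp14, a membrane-bound collagenase, read 365 and 582 in PEA3-null tumours and 605, 689 and 776 in wild-type tumours (log2 -0.54). Wfdc2, a secreted protease inhibitor-like protein, lay the other way, at 322 and 390 in PEA3-null tumours and 94.9, 168 and 286 in wild-type tumours (log2 0.95). Dusp6, a phosphatase induced by MAP kinase signalling, read 10400 and 8340 in PEA3-null tumours, 8780, 8690 and 9270 in wild-type tumours and 576 to 615 in normal glands, and overlapped. The 20 tested ETS factors had a median of 0.03 and the 20 genes of the ErbB pathway 0.06.

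Epithelial genes lay on both sides. Of 23 tested, 5 were higher and 1 lower at an unadjusted p under 0.05, where 2.91% and 4.31% of all genes were, with a median of 0.14. The luminal keratins Krt8 and Krt18, which pair into the same filaments, went opposite ways. Krt8 read 6110 and 7140 in PEA3-null tumours, 9320, 14700 and 14100 in wild-type tumours and 1700 to 2430 in normal glands (log2 -0.91, adjusted p = 0.36). Krt18 read 10300 and 11600 in PEA3-null tumours, 7830, 7030 and 5310 in wild-type tumours and 1690 to 2190 in normal glands (log2 0.71, adjusted p = 0.458). Krt7, another luminal keratin, read 1240 and 1070 in PEA3-null tumours and 516, 413 and 635 in wild-type tumours (log2 1.11, adjusted p = 0.36). The genotypes did not overlap for these 3 keratins, and 0 of the 23 passed.

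Milk genes had a median of -0.08 over 19. At an unadjusted p under 0.05 in limma, 2 were higher and 3 lower, where 2.91% and 4.31% of all genes were. Without overlap 1 was higher and 4 lower, where 11% and 12.4% of all genes were. Lalba, alpha-lactalbumin, part of the enzyme that makes lactose, read 8090 and 16400 in PEA3-null tumours, 45200, 23700 and 23200 in wild-type tumours and 1350 to 1880 in normal glands (log2 -1.34, adjusted p = 0.396), so all tumours lay above normal gland. The caseins overlapped between genotypes. The 4 red cell genes were all lower without overlap, where 12.4% of all genes were, with a median of -1.0. Hbb-b2, a beta globin, read 6600 and 7000 in PEA3-null tumours, 19500, 9580 and 17300 in wild-type tumours and 5130 to 5380 in normal glands. In bulk RNA, fewer cells of a type and less RNA per cell cannot be told apart. Of 30 cell cycle genes, 0 were higher and 2 lower at an unadjusted p under 0.05, where 4.31% of all genes were lower (median -0.12). Spag5, a mitotic spindle protein, read 2330 and 1380 in PEA3-null tumours, 4470, 3480 and 3430 in wild-type tumours and 16.6 to 26.2 in normal glands on chip B (log2 -1.06), while its chip A probe set gave -0.11.

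Other genes with large separation, none past the threshold, came from several systems. St6galnac2, a sialyltransferase, read 3080 and 4400 in PEA3-null tumours, 784, 551 and 1450 in wild-type tumours and 308 to 426 in normal glands (log2 2.06, SE 0.34, adjusted p = 0.111). Pglyrp1, a secreted protein that binds bacterial cell walls, read 3670 and 1750 in PEA3-null tumours and 619, 506 and 1050 in wild-type tumours (log2 1.83, adjusted p = 0.145). Efnb1, a ligand of Eph receptors, read 705 and 643 in PEA3-null tumours, 167, 132 and 127 in wild-type tumours and 1020 to 1370 in normal glands by its chip B probe set (log2 2.03). Pglyrp1 and Efnb1 each differed the same way by a second probe set, at 1.70 and 1.46. Fosl1, the AP-1 subunit FRA-1, read 235 and 355 in PEA3-null tumours, 26.3, 35.1 and 52.4 in wild-type tumours and 20.6 to 48 in normal glands (log2 2.22, adjusted p = 0.598).

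Among lower genes, Itgav, integrin alpha V, read 1260 and 865 in PEA3-null tumours, 2230, 2240 and 2160 in wild-type tumours and 1110 to 1350 in normal glands (log2 -1.06, adjusted p = 0.181), but its other tested probe set gave 0.38. Notch1 read 190 and 152 in PEA3-null tumours and 416, 391 and 378 in wild-type tumours (log2 -1.08), the other direction from Notch4. Npy, neuropeptide Y, read 5670 and 8060 in PEA3-null tumours, 20500, 10100 and 17800 in wild-type tumours and 75.1 to 205 in normal glands (log2 -1.19). Cck, the peptide hormone cholecystokinin, read 40.3 and 63.4 in PEA3-null tumours, 488, 1110 and 230 in wild-type tumours and 295 to 350 in normal glands (log2 -2.69, adjusted p = 0.238). Both of these peptide genes were lower, where the peptide-processing enzyme Cpe was higher by its chip A probe sets. The 8 genes of prohormone processing had a median of 0.07. The genotypes did not overlap for any of these 4 genes.

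**Figure D3:**
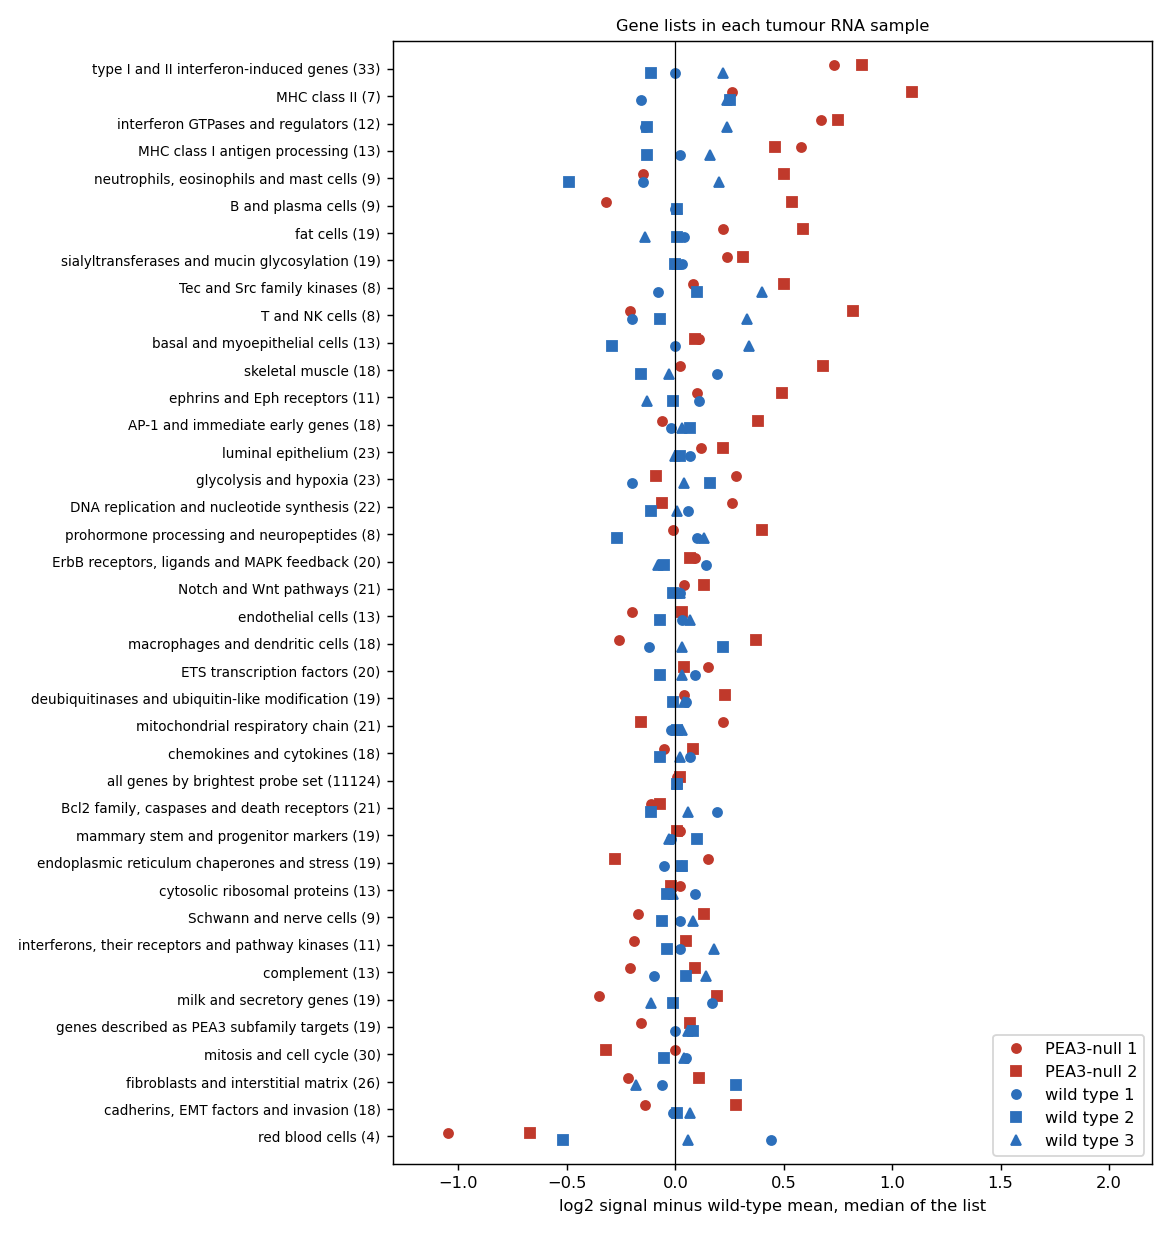
Median log2 signal of each gene list in each tumour RNA sample, set against the wild-type mean, with the number of genes measured in brackets. PEA3-null samples 1 and 2 lie together for interferon-induced genes (0.73 and 0.86) and apart for MHC class II (0.26 and 1.09) and T cell genes (-0.21 and 0.82).

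PEA3-null samples differed from each other in genes of other cell types. Lists for T cells, B cells, granulocytes, macrophages, fat and skeletal muscle were all higher in sample 2 than in sample 1. The summed signal of 9 granulocyte and mast cell genes was 2400 in PEA3-null sample 1 and 17700 in sample 2, and 1710 to 4180 in wild-type tumours. Of the 17700 in sample 2, 15300 came from a single member, Ltf. For 18 macrophage genes it was 35000 and 55600 in PEA3-null tumours and 38700 to 50700 in wild-type tumours. For 8 T cell genes it was 1330 and 3440 in PEA3-null tumours and 1340 to 2140 in wild-type tumours. In each case sample 1 lay at or below the wild-type tumours, or among them, and sample 2 above them. For the granulocyte and mast cell sum, the place of sample 2 above wild-type tumours rested on Ltf. The 9 B cell genes summed to 2510 and 4500 in PEA3-null tumours and 2680 to 3000 in wild-type tumours. For 18 muscle genes it was 8640 and 13600 in PEA3-null tumours, 8640 to 10400 in wild-type tumours and 195000 to 206000 in normal glands. Among single genes, Ltf, lactoferrin, which epithelium and granulocytes both make, read 753 and 15300 in PEA3-null tumours and 286, 366 and 316 in wild-type tumours. Ighm, the IgM heavy chain, read 1220 and 5380 in PEA3-null tumours and 39.2, 811 and 27.6 in wild-type tumours by the probe set with the largest difference, and its 7 tested probe sets spanned -0.34 to 4.09 in log2.

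In PEA3-null sample 1, where the 4 immune lists lay below the wild-type mean (-0.15 to -0.32), the median of the interferon-induced genes was 0.73. With sample 2 left out, the log2 difference was 2.32 for Usp18 (adjusted p = 0.12) and 1.83 for Oasl2 (adjusted p = 0.13), the one sample being assumed to vary as the wild-type samples do. The part of other cell types in the differences was not tested.

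**Figure D4:**
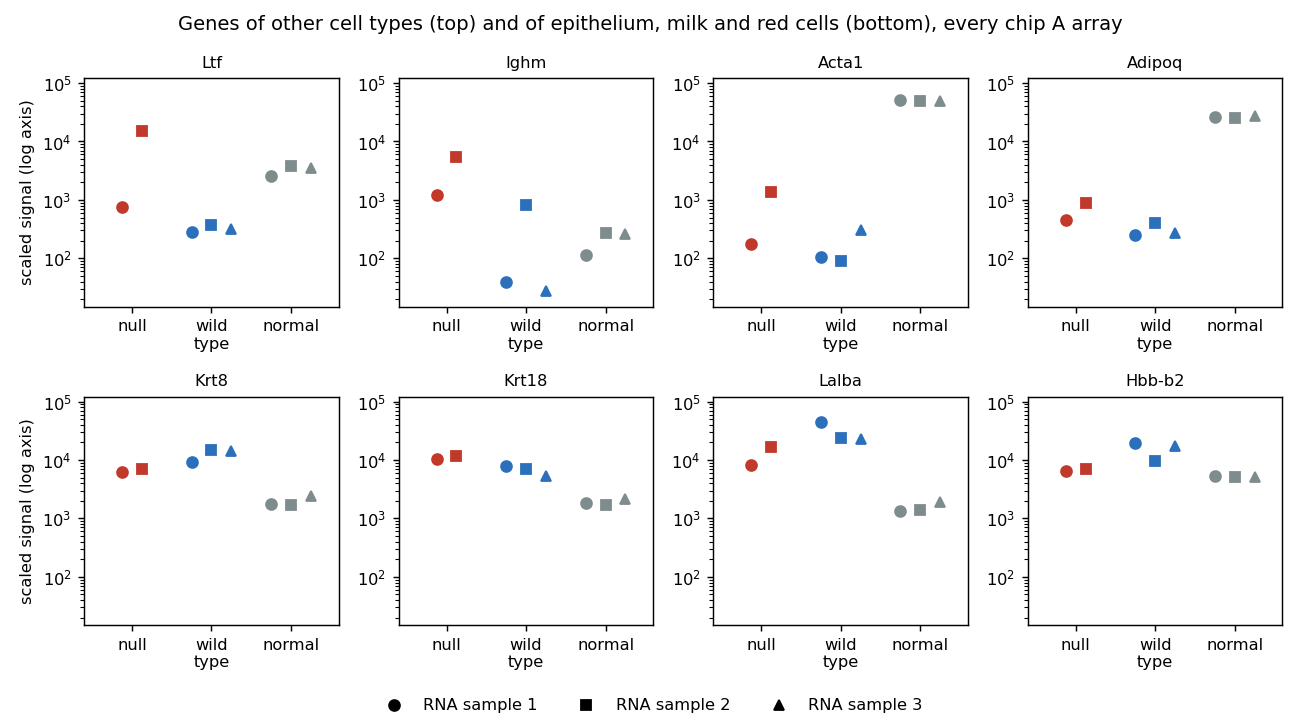
Signal on every chip A array (points, log axis) of genes of other cell types (top) and of epithelium, milk and red cells (bottom), for PEA3-null tumours, wild-type tumours and normal glands. For Ltf, Ighm and Acta1 PEA3-null sample 2 lies far above sample 1 (Ltf 15300 and 753), while Krt8, Krt18 and Hbb-b2 separate the genotypes with both samples.

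Chips A and B differed in balance. With an unadjusted p under 0.01 and no overlap, chip A held 78 higher (0.966%) and 75 lower probe sets (0.929%), and chip B 37 higher (0.383%) and 104 lower (1.08%). Of the 15 largest falls 13 were on chip B, and of the 15 largest rises 5 were. Other probe sets of the same genes often did not share the size or direction of these falls and rises. Usp22, a deubiquitinase of the SAGA complex, read 177 and 68.5 in PEA3-null tumours and 787, 756 and 888 in wild-type tumours by 106531_at (log2 -2.53), while its other tested probe sets gave 0.30 and 0.43. Kdm6a, a histone H3K27 demethylase, read 25.6 and 16.4 in PEA3-null tumours and 314, 285 and 338 in wild-type tumours by 163321_i_at (log2 -2.70), while its chip A probe set gave -0.09. Of 11 genes among the largest falls that had another tested probe set, 4 had all others in the same direction, Kdm6a among them. Of 8 such genes among the largest rises 4 did. Another probe set went the same way at an unadjusted p under 0.05 in limma for 2 of the 11 and 1 of the 8. On chip B genotype, chip lot and scan day cannot be told apart.

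**Figure D5:**
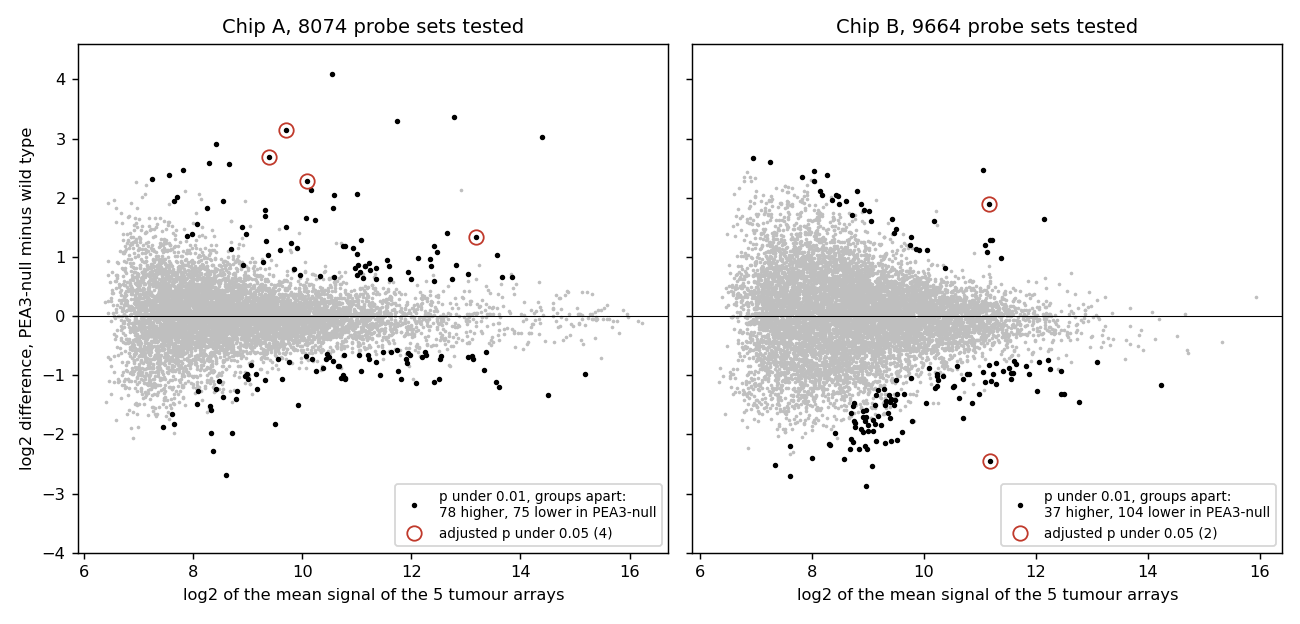
Log2 difference, PEA3-null minus wild-type tumours, against the log2 mean signal of the 5 tumour arrays, for every tested probe set of chips A and B. Black points have an unadjusted p under 0.01 and groups that do not overlap, and more of them lie below zero on chip B (104) than above it (37), with 75 and 78 on chip A. Rings mark the 6 past the adjusted threshold.

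Chip C held 1 PEA3-null sample, so its values have no replicate check and no test. The PEA3-null array was scanned on another day than the wild-type arrays, so genotype and scan day cannot be told apart there. Of 7163 probe sets that reached the signal minimum, 1112 were more than 1 higher on the log2 scale and above both wild-type samples (15.5%), and 1174 were more than 1 lower and below both (16.4%), so differences of this size are common there. Oas1b, an oligoadenylate synthetase that confers resistance to flaviviruses, read 2000 in the PEA3-null sample, 211 and 185 in wild-type tumours and 843 to 2340 in normal glands. Its relative Oas3 lay the other way, at 1780 in the PEA3-null sample and 3420 and 2520 in wild-type tumours. Cnmd, chondromodulin, which inhibits blood vessel growth, read 9730 in the PEA3-null sample and 920 and 967 in wild-type tumours. Fam3b, a secreted cytokine-like protein, read 176 in the PEA3-null sample and 2720 and 2280 in wild-type tumours by 169583_at, but its other probe set, 168781_at, lay the other way, at 798 in the PEA3-null sample and 590 and 587 in wild-type tumours.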

How the data were processed

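Total RNA of the samples described above was read on MG-U74Av2, MG-U74Bv2 and MG-U74Cv2 arrays. The deposited values are linear intensities per probe set made with MAS5, per the submitters' processing notes, which give no version. Every array as deposited had a 2% trimmed mean between 1500.28 and 1501.06. The deposited instrument files (other) supplied scan day, chip lot and control ratios only.

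Scaling brought the 2% trimmed mean of all arrays to 500, and log2 was taken after adding 32, which shrinks the differences of dim probe sets. Control probe sets (198 in all, 66 on each chip) did not enter. Probe sets at 150 or more on at least 2 tumour arrays were tested by lmFit and eBayes with trend in limma 3.58.1 (R 4.3.3), two-sided, per chip type on tumour arrays only, with Benjamini-Hochberg adjustment over chips A and B and a threshold of 0.05. SE is limma's, and the number of arrays limits the precision. Of 36899 probe sets, 29197 had 1 gene symbol, 724 several and 6978 none, and 29110 matched RefSeq by gene identifier. Genes of lists were read by their brightest probe set. The fit was tested on simulated data, in which 177 probe sets were changed. It called 10 probe sets, 0 of them falsely, so most changes were missed. A list with 0 past the threshold may therefore still hold differences.

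Members and lists were chosen with earlier results of these data known. Named genes were those past the threshold, the 15 largest rises and 15 largest falls with an unadjusted p under 0.01 and no overlap, 12 of each on chip A, 6 of each on chip C, the genes Ly6a, Erbb2, Etv1, Etv4 and Etv5, and at most 5 of every list. Alternatives concerned scaling, the added constant, the filter, normal glands in the fit, the variance model, array weights, replicate numbers as a block, chip types, a minimum fold and the omission of each RNA sample. The RefSeq windows used here included none for Usp18 or Cpe, so these genes were not searched for the motifs.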

Additional observations from a re-analysis of the deposited data

How the results depend on the processing

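The count of 6 probe sets past the threshold, on chips A and B and on chip A alone, moved with the fit. It was 2 on both chips with no signal filter and 37 on both chips or 27 on chip A with normal glands in the fit. Without a variance trend limma gave 0 in both, with 1220 and 529 at an unadjusted p under 0.05. Leaving out 1 RNA sample gave 0 to 41 on both chips and 0 to 11 on chip A. On both chips wild-type samples 1, 2 and 3 gave 0 when left out (981, 892 and 922 at an unadjusted p under 0.05), PEA3-null sample 2 gave 1, and PEA3-null sample 1 gave 41, 28 of them lower. On chip A the count was 0 without PEA3-null sample 2 (609 at an unadjusted p under 0.05). With replicate numbers as a block the count was 19 in each, 17 higher and 2 lower, 5 of the 6 on both chips among them. Deviations of samples with the same number correlated at -0.131 to -0.0845, so no pairing by number showed in the signals. With 2 PEA3-null samples the deviation of each mirrors the other, so this check cannot decide whether samples were handled in pairs. Other scalings, constants, filters, array weights, a fold minimum and chip C added gave 4 to 9.

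Of 90 values of the 6 probe sets that passed, 50 stayed past the threshold and 40 did not. Usp18 (log2 2.15 to 2.44) stayed past it in 10 of 15 alternatives, Oasl2 (1.77 to 2.01) in 9, Ifitm3 (1.23 to 1.40) in 7, BC006965 (-3.07 to -1.84) in 6 and Cpe in 10 and 8, and none changed direction. Of all 2777 values of 191 named probe sets, 30 passed only under an alternative and 11 changed direction, all of probe sets that did not pass. Etv5 gave -0.03 with median scaling, -0.08 with the replicate block and -0.33 to 0.34 with 1 RNA sample left out (below 0 without PEA3-null sample 1 or wild-type sample 3). With 1 sample left out, Etv4 gave -0.42 to 0.40 by 92979_at (above 0 without PEA3-null sample 2 or wild-type sample 1) and -0.65 to 0.08 by 161842_r_at (above 0 without PEA3-null sample 1 or, at 0.00, wild-type sample 3), and Cd247 gave -0.20, without PEA3-null sample 2, to 1.65. Etv4 also gave 0.00 with array weights by 92979_at and with the block by 161842_r_at. Medians of the lists of interferon signalling genes, PEA3 targets, ETS factors, milk and prohormone genes, all near 0, changed sign under some alternatives.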

Other observations

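Immunoglobulin genes, which plasma cells and B cells express, were read by 38 tested probe sets, and 13 of them lay above all wild-type tumours in both PEA3-null samples and 1 below, where 11.2% and 11.9% of all tested probe sets did. Their median signal was 228 and 466 in PEA3-null tumours, 198, 186 and 193 in wild-type tumours and 158 to 207 in normal glands. PEA3-null sample 2 exceeded sample 1 in 34 of the 38. Igkv6-23 read 5940 and 23400 in PEA3-null tumours and 267, 4570 and 1060 in wild-type tumours, so wild-type sample 2 came near PEA3-null sample 1. These genes are near-identical copies, and their probes cannot be told apart with certainty.

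Genes of other tissue, Acta1 and Adipoq, stayed far below normal gland in both genotypes but were higher in PEA3-null sample 2. Acta1, skeletal muscle actin, read 173 and 1390 in PEA3-null tumours, 104, 91.9 and 303 in wild-type tumours and 50100 to 51600 in normal glands. Adipoq, the fat cell hormone adiponectin, read 460 and 874 in PEA3-null tumours, 247, 405 and 269 in wild-type tumours and 25500 to 27000 in normal glands. Of the 3341 genes with at least 2 tested probe sets, 16 were higher and 14 lower in PEA3-null tumours by at least 2 of them at an unadjusted p under 0.05. Slfn2, named after its values were seen, a regulator of T cell quiescence that interferon induces, was among the higher ones (log2 0.89 and 1.16).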
